A study of Mus musculus with 24 samples.

Results

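The transcripts described here belong to oxysterol signalling and to the liver X receptor (LXR) pathway of the macrophage. The list held 10 genes: the oxysterol enzyme Ch25h, the oxysterol receptor Gpr183 (also called EBI2), the nuclear receptors Nr1h2 (LXRβ), Nr1h3 (LXRα), Rxra and Pparg, and the LXR targets Abca1, Abcg1, Mylip and Apoe. Their probes were found by gene symbol, and the brightest detected probe stood for each gene. Of the 10 genes, 8 had a probe paired with them in the array's name table, and 5 of these had a signal above background on both arrays of at least 1 group and entered the tests: Gpr183, Ch25h, Abcg1, Nr1h3 and Pparg. They were 5 of 8622 genes tested.

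The cells were RAW264.7, a mouse macrophage-like line, grown as 1 line without any genetic change named in the labels. They were left untreated or exposed to LPS, a TLR4 ligand, at 100 ng/mL, to P3C (Pam3CSK4), a synthetic lipopeptide and TLR2 ligand, at 1 μM, or to R848 (resiquimod), a TLR7 ligand, at 1 μM. Untreated and exposed cells were each taken at 1, 2 and 4 h, which gave 12 groups of 2 arrays, A and B, described in the study's methods as duplicate biological samples. RNA was read on 24 Illumina BeadChip arrays, and values below are quantile-normalized log2 signals, on which a difference of 1 is a doubling. With 2 arrays a group, p-values rest on the spread within groups, pooled over all 12 groups and drawn toward that of other genes. They measure only the spread between these arrays.

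Oxysterols are oxidized forms of cholesterol. Inside the cell they bind LXRα and LXRβ, which pair with the retinoid X receptor and switch on genes that move cholesterol out of the macrophage. Such genes are the transporters Abca1 and Abcg1 and the lipoprotein component Apoe. Another LXR target is the LDL receptor-degrading ligase Mylip. Ch25h adds a hydroxyl group to the side chain of cholesterol, and a further enzyme step turns its product into the ligand of Gpr183, a G-protein-coupled receptor that steers the migration of immune cells. Pparg, the receptor PPARγ, is a lipid-sensing partner of the retinoid X receptor that is known to act upstream of Nr1h3 in macrophages.

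The receptor at the end of this route changed with each ligand and the enzyme at its start with LPS, and the 250 bases upstream of their annotated starts are shown for that reason. The sequences are RefSeq's in build GRCm38.p6, written 5′ to 3′ in the direction of the gene, and both genes lie on the minus strand, Ch25h at chr19:34475149-34475398 and Gpr183 at chr14:121965194-121965443. Capitals mark matches to the motifs searched on both strands.
Ch25h: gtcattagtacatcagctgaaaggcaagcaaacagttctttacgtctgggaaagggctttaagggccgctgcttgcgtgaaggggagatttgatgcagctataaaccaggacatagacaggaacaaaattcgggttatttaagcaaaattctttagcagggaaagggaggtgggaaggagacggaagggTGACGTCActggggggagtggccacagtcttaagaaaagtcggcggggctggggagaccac
Gpr183: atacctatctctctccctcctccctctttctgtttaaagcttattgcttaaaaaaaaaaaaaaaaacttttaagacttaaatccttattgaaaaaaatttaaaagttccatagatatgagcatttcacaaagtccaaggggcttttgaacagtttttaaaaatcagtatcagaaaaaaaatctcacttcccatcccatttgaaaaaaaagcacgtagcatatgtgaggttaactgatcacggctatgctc
The capitals in Ch25h are the palindrome TGACGTCA, known as the cAMP response element, 54 to 61 bases before the start. It was found in 508 of 32841 promoters of the same length (1.55%). None of the other motifs searched matched in either sequence. These were the AP-1 site TGANTCA (6.75% of promoters), the interferon-γ-activated site TTCNNNGAA (7.02%), the core of the interferon response element GAAANNGAAA (2.98%), the NF-κB site (7.25%), and the direct repeat bound by LXR, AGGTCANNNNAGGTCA (0.0152%). The single match overlapped no other, and a match is a description of the letters only.

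Ch25h, the oxysterol-producing enzyme, rose with LPS at 2 and 4 h, from a signal not well above background. Its signal was 6.999 and 6.998 on the 2 LPS arrays at 2 h and 7.04 and 7.02 at 4 h. These were the only 4 of 24 arrays on which the probe was detected (p under 0.01 against the negative controls). On the other 20 arrays, LPS at 1 h included, its signal lay between 6.64 and 6.86 and was not well above background. The LPS arrays at 2 and 4 h lay above every other array, and the 2 times were separated by 0.02.

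With LPS the Ch25h signal rose by 0.29 on the log2 scale at 2 h (SE 0.07, limma adjusted p = 0.00932, n = 2 per group) and by 0.38 at 4 h (SE 0.07, adjusted p = 0.000589). Because the untreated arrays were not well above background, the change is a lower bound: at least 1.07-fold at 2 h and at least 1.10-fold at 4 h. At 1 h the difference was -0.03 (adjusted p = 0.946). The gene entered the tests only through the LPS groups in which it was high. The signals of P3C and R848 at 2 and 4 h (6.70 to 6.86) were not well above background, with adjusted p between 0.158 and 0.777 against untreated arrays of the same time. The call at 2 h was lost without LPS array A (adjusted p = 0.0593) and without untreated array A (adjusted p = 0.0749), under median scaling (adjusted p = 0.143) and in the fit of only the arrays compared (adjusted p = 0.276). Background correction with normexp on the negative controls enlarged the LPS differences to 0.98 at 2 h and 1.17 at 4 h.

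Gpr183 fell with each ligand at each time. At 1 h its signal was 9.98 and 9.86 in untreated cells and 8.74 and 9.05 with LPS. At 2 h it was 10.32 and 9.91 against 7.78 and 7.67, and at 4 h 10.42 and 10.34 against 7.75 and 7.73. The lowest untreated array lay 0.82 above the highest exposed array, so the groups did not overlap at any time.

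With P3C the Gpr183 signal read 8.62 and 8.59 at 1 h, then 8.29 and 8.40, and then 8.58 and 8.60. With R848 it was 8.66 and 8.62, 8.10 and 8.11, and 8.45 and 8.36 at the 3 times. The probe was detected on all 24 arrays, and every signal lay above the level at which probes passed detection (6.86 to 6.94).

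**Figure D1:**
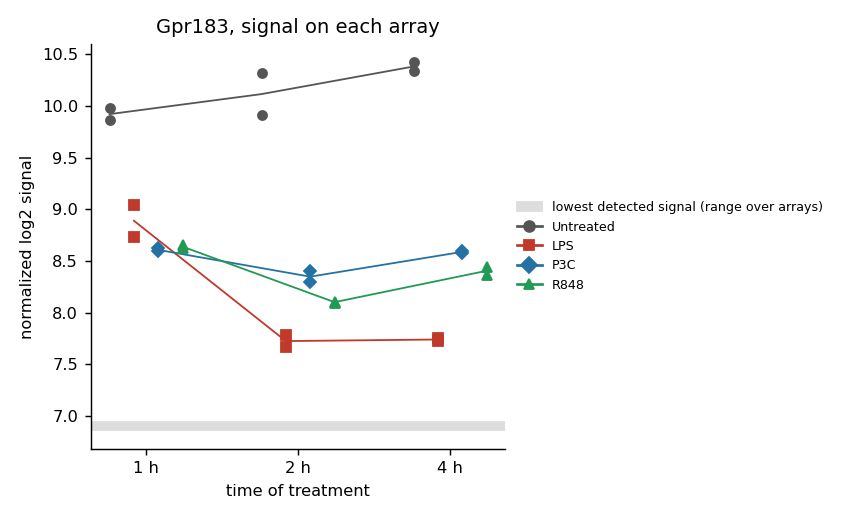
Normalized log2 signal of Gpr183 on each of 24 arrays (points) against time of treatment (1, 2 and 4 h), with lines through the means of 2 arrays and a grey band for the lowest detected signal over arrays (6.86 to 6.94). The untreated arrays sit between 9.86 and 10.42, and all exposed arrays lie between 7.67 and 9.05.

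Against untreated cells of the same time, the LPS differences of Gpr183 were -1.03 at 1 h (adjusted p = 2.86e-05), -2.39 at 2 h (adjusted p = 1.31e-09) and -2.64 at 4 h (adjusted p = 1.25e-10), each with SE 0.11 and n = 2 per group. The last of these is a 6.25-fold lower signal. P3C gave -1.31, -1.77 and -1.79 (adjusted p = 2.70e-06, 1.38e-07 and 5.21e-08), or 3.47-fold lower at 4 h. R848 gave -1.28, -2.01 and -1.98 (adjusted p = 2.38e-06, 3.27e-08 and 1.34e-08), or 3.94-fold lower at 4 h.

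Among 8622 genes, the fall of Gpr183 at 2 h ranked 1 for each of the 3 ligands. With slide as a random block, the ranks of Gpr183 at 2 h were 4, 3 and 2. It ranked 2 with P3C after background correction and 2 with R848 after median scaling. At 4 h it ranked 2 with LPS, 13 with P3C and 11 with R848.

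In untreated cells the Gpr183 signal differed by 0.46 between 4 h and 1 h (SE 0.11, adjusted p = 0.346), a comparison in which 0.0696% of genes were called. Ordered by mean, the 3 untreated groups came first (10.38 at 4 h, 10.12 at 2 h and 9.92 at 1 h), and LPS at 4 h (7.74) and 2 h (7.73) came last. Neighbours whose arrays overlapped were untreated at 2 h and 1 h, P3C at 1 h and 4 h, R848 at 4 h and P3C at 2 h, and LPS at 4 h and 2 h. The other 7 pairs of neighbours were separate.

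Of the 10 slides, none carried an exposed array together with an untreated array of matching time, so slide and treatment cannot be fully told apart in these comparisons. Untreated arrays of another time shared a slide with exposed arrays in several cases. One slide held the B arrays of all 3 ligands at 2 h, with Gpr183 signals of 7.67 for LPS, 8.40 for P3C and 8.11 for R848, and untreated array B at 1 h, with 9.86. Another held the B arrays at 4 h, with 7.73, 8.60 and 8.36, and untreated array B at 2 h, with 9.91. On both slides the untreated array was the highest. With slide as a random block the Gpr183 differences from untreated cells lay between -2.62 and -1.03 and each was called, and those of Ch25h with LPS were 0.29 at 2 h (adjusted p = 0.0272) and 0.38 at 4 h (adjusted p = 0.00277). The fall was called under each alternative for LPS at 2 and 4 h, P3C at 4 h and R848 at each time, whereas the calls for LPS and P3C at 1 h were lost under median scaling (adjusted p = 0.229 and 0.0531), and those for LPS at 1 h and P3C at 2 h in fits of only the arrays compared (adjusted p = 0.0754 and 0.0614).

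Each count of called genes is read against the share of all 8622 genes called in the same comparison at an adjusted p under 0.05. Under LPS, 1, 2 and 2 of the 5 tested genes were called at 1, 2 and 4 h, where 3.51%, 11.9% and 26.8% of all genes were. With P3C, 1 of 5 was called at each time, where 3.02%, 5.49% and 10.8% were. With R848, 1 of 5 was also called at each time, where 3.41%, 6.58% and 12.7% were. The called gene was Gpr183 throughout, joined by Ch25h with LPS at 2 and 4 h. Ch25h entered the tests only through these LPS groups, so the filter favoured its calls there. Apart from it, Gpr183 was the only gene called with LPS, as with the other ligands. At each time the 3 comparisons share the 2 untreated arrays.

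**Figure D2:**
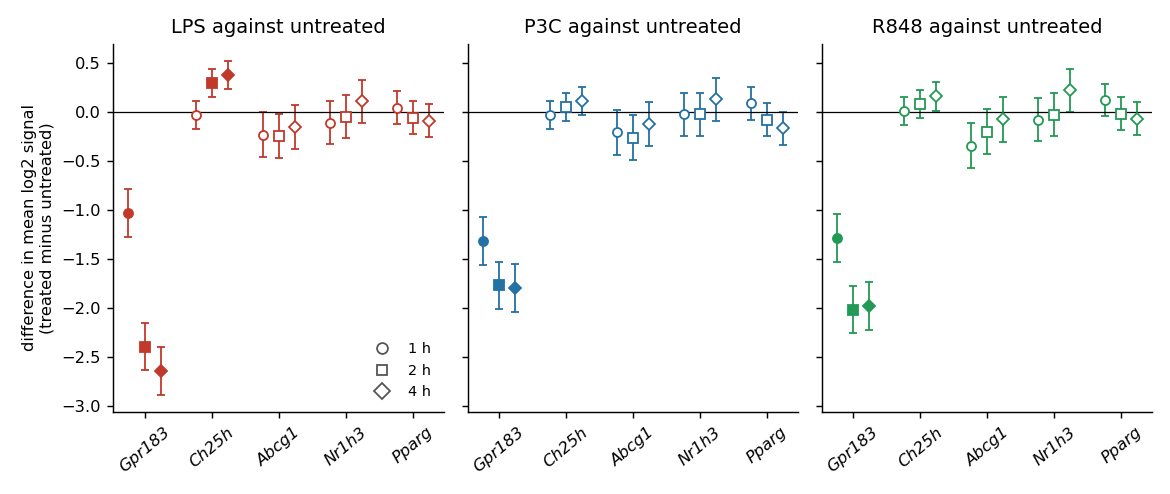
Differences in mean log2 signal between exposed and untreated cells of the same time for the 5 tested genes, in a panel per ligand, with circles for 1 h, squares for 2 h and diamonds for 4 h. Bars are 95% confidence intervals from the fit, and filled symbols mark an adjusted p under 0.05. Gpr183 reaches -2.64 with LPS at 4 h, and Abcg1, Nr1h3 and Pparg have open symbols throughout.

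The 3 ligands were then set against each other at matched times, as they act through different receptors. These are 9 pairs of groups. At 1 h none separated Gpr183: the LPS signal was 0.28 above that of P3C (95% interval 0.04 to 0.53) and 0.25 above that of R848 (0.01 to 0.49), each with an adjusted p that rounds to 1. On shared slides the differences were 0.11 and 0.45 from P3C and 0.08 from R848. At these 1 h pairs 0.209% and 0.116% of genes were called.

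At 2 h the Gpr183 signal with LPS was lower than with P3C by 0.62 (SE 0.11, adjusted p = 0.0066), where 1.48% of genes were called. On the slide that held both B arrays the difference was -0.73. The call was kept in 11 of 16 alternatives. It was lost without LPS array B or P3C array B, where the difference was -0.57 each time. Median scaling (-0.54), only the arrays compared (adjusted p = 0.466) and pooled untreated arrays (adjusted p = 0.0574) also ended it. Against R848 the difference at 2 h was -0.38 (95% interval -0.62 to -0.13, adjusted p = 0.248, with 1.19% of genes called), and -0.44 on the shared slide. With slide as a random block it was -0.43 and called (adjusted p = 0.0230).

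At 4 h the Gpr183 signal with LPS was lower than with P3C by 0.85 (adjusted p = 0.000151), where 5.81% of genes were called, and lower than with R848 by 0.66 (adjusted p = 0.00164), where 4.69% were. The call against R848 was lost under median scaling (adjusted p = 0.136). The differences on the shared slide were -0.87 and -0.64. R848 and P3C differed by 0.03, -0.25 and -0.18 at the 3 times, with 95% intervals of -0.21 to 0.27, -0.49 to 0.00 and -0.43 to 0.06. In these pairs 0.0348%, 0.0232% and 0% of genes were called by limma. At 4 h, where 0 genes were called, 61 had an unadjusted p under 0.05. This is a smaller share of 8622 genes than the 0.05 that tests without any difference would give. The numbers called also depended on the fit. With slide as a random block, 1612 genes were called for LPS against P3C at 4 h and 1569 for LPS against R848. The main fit called 501 and 404 for these pairs. For R848 against P3C at 4 h, 4 genes were called with that block.

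Ch25h was higher with LPS than with P3C at 4 h by 0.27 (SE 0.07, adjusted p = 0.0272), at least 1.10-fold, and by 0.21 on the shared slide. Leaving out any of the 4 arrays ended this call, with adjusted p = 0.153 and 0.118 without LPS array A or B and 0.245 and 0.0546 without P3C array A or B. Against R848 at 4 h the difference was 0.22 (adjusted p = 0.0898), at least 1.09-fold, and 0.26 on the shared slide. It was called in 2 of 15 alternatives, among them slide as a random block (adjusted p = 0.0262). The call against P3C was also lost under median scaling (adjusted p = 0.304) and with only the arrays compared (adjusted p = 0.223). With slide as a fixed block it was lost too (adjusted p = 0.0578). Ch25h passed the detection filter only through LPS at 2 and 4 h, so the filter favoured both differences.

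Between 1 and 4 h the LPS response of Gpr183 deepened (difference of differences -1.61, SE 0.16, adjusted p = 5.16e-06). With R848 it changed by -0.70 (adjusted p = 0.0231), a call that was lost without either R848 array at 1 or 4 h, without either untreated array at 4 h or without untreated array B at 1 h (adjusted p between 0.0540 and 0.107). With the untreated arrays of the 3 times pooled it was -0.23 (adjusted p = 0.447). With P3C the change was -0.48 (95% interval -0.82 to -0.14, adjusted p = 0.170). Ch25h changed by 0.41 with LPS (SE 0.10, adjusted p = 0.0107). This gene entered the tests only through LPS at 2 and 4 h, so the filter favoured that change. With slide as a random block neither the R848 change of Gpr183 (adjusted p = 0.0516) nor the LPS change of Ch25h (adjusted p = 0.0648) was called. Changes of this kind were called for 10.0% of genes with LPS, 2.92% with P3C and 3.54% with R848.

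Of the nuclear receptors, Nr1h3 and Pparg were tested, and on the scale without background correction they differed little between groups. Both lay near the level at which probes passed detection (6.86 to 6.94). Nr1h3, the LXRα transcript, was detected on all 24 arrays at 7.05 to 7.46, and its 2 extremes were a LPS array at 1 h and a P3C array at 4 h. At 4 h its signal was 7.23 and 7.16 in untreated cells. LPS arrays read 7.32 and 7.30, P3C arrays 7.19 and 7.46, and R848 arrays 7.43 and 7.40. The R848 arrays lay above the untreated arrays by 0.22 (95% interval 0.00 to 0.44, adjusted p = 0.207). This difference ranged from 0.17 to 0.50 over the alternatives and was called in 0 of 15. In the order of the 12 group means, every group of Nr1h3 overlapped the next.

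Pparg, the PPARγ transcript, was detected on 20 arrays, at signals of 6.84 to 7.18 over all arrays. Its 2 arrays at 4 h read 7.11 and 7.003 in untreated cells. LPS arrays read 7.01 and 6.93, P3C arrays 6.84 and 6.94, and R848 arrays 6.99 and 6.99. The P3C difference at 4 h was -0.17 (95% interval -0.33 to 0.00, adjusted p = 0.228). It ranged from -0.56 to -0.11 over the alternatives and was called in 0 of 14. The differences of the other 8 comparisons with untreated cells lay between -0.09 and 0.12, with adjusted p of 0.444 or more. A second Pparg probe was detected on 0 arrays and a second Nr1h3 probe on 1.

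Rxra, the common partner of these receptors, was detected on 0 arrays, with signals of 6.65 to 6.78. Nr1h2, the LXRβ transcript, had no probe paired with it in the name table and is not analysed here.

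Among the LXR targets, Abcg1, the cholesterol exporter, was detected on 19 arrays and lay near the limit of detection in exposed cells. In untreated cells its 2 arrays read 7.53 and 7.35 at 1 h, then 7.33 and 7.05, and then 7.09 and 7.02. With LPS it was 7.16 and 7.26, 6.95 and 6.95, and 6.99 and 6.81 at the 3 times, the last array being not well above background.

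With P3C the Abcg1 signal read 7.23 and 7.24 at 1 h, then 7.04 and 6.83, and then 6.89 and 6.96. With R848 it was 7.15 and 7.04, 7.06 and 6.92, and 6.89 and 7.06. The group means of exposed cells lay below those of untreated cells in 9 of 9 comparisons, by 0.08 to 0.34, and none passed the test (adjusted p between 0.119 and 0.753). The comparisons of each time share the same untreated arrays, so these are not 9 independent differences. The median difference of all genes was also negative in each, at -0.06 to -0.01. The untreated groups themselves differed by -0.39 between 4 h and 1 h (adjusted p = 0.424). Only untreated cells at 1 h, the highest group, did not overlap the next group in order. With the untreated arrays of the 3 times pooled, the LPS difference at 4 h was -0.33 (adjusted p = 0.0307). The R848 difference at 1 h ranged from -0.82 to -0.13 over the alternatives and was called in 0 of 14.

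**Figure D3:**
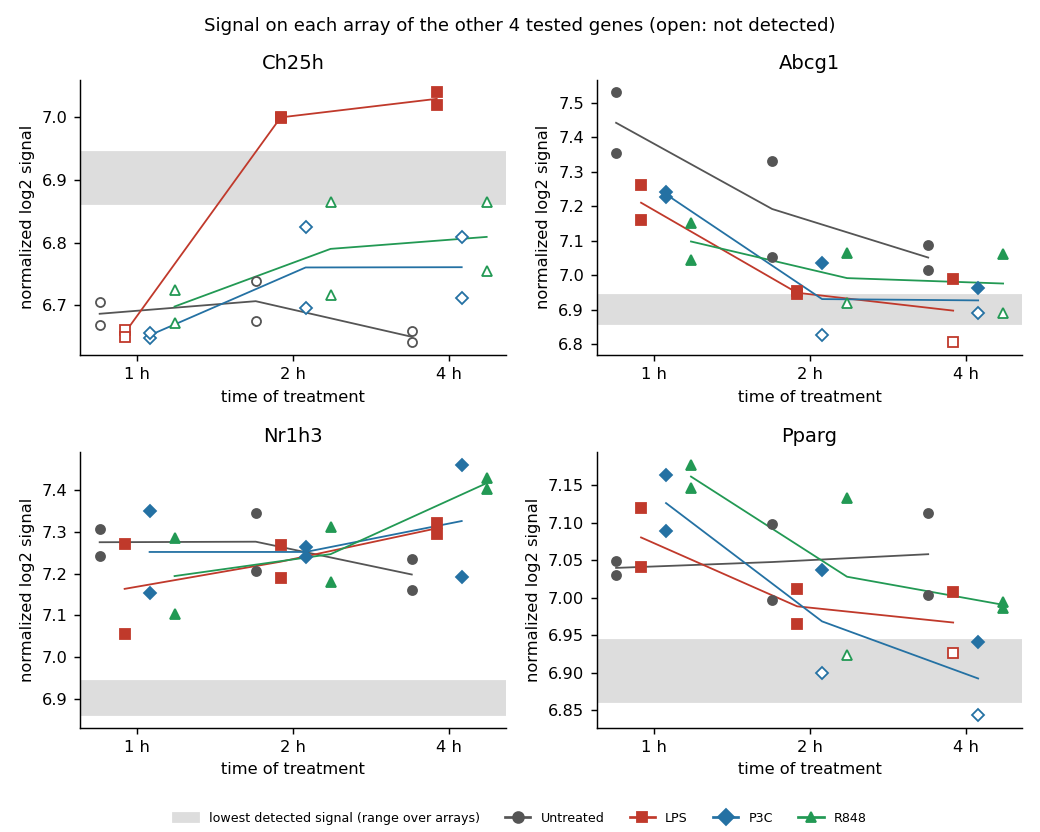
Normalized log2 signal of Ch25h, Abcg1, Nr1h3 and Pparg on each of 24 arrays (filled, detected; open, not detected) against time of treatment, with lines through the means of 2 arrays. The grey band is the lowest detected signal over arrays (6.86 to 6.94), which Ch25h passes with LPS at 2 and 4 h only; each panel has its own axis.

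Of the other LXR targets, Mylip was detected on 0 arrays (signals of 6.62 to 6.79). Apoe was detected on 1 array, P3C array B at 4 h, at 6.92, and its signals ranged from 6.64 to 6.92. For these genes a change could not be seen at the sensitivity of the array. Abca1 had no probe paired with it in the name table and is not analysed here.

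Genes of the same pathways were grouped in 5 lists. Their counts at 4 h are read against the shares of all genes called at 4 h, 26.8% with LPS, 10.8% with P3C and 12.7% with R848. The median difference of all tested genes with LPS was -0.06. Under median scaling the LPS calls at 4 h were 325 higher and 1428 lower, against 934 and 1377 here, and the median of all genes moved to -0.33. None of the calls named below changed sign under that scaling, but 28 of 37 such calls were lost with it and 3 of 37 with background correction. The lost calls include the rises with LPS at 4 h of Stard3, Npc2, Plin2 and Tbl1x (adjusted p between 0.343 and 0.914). Falls were lost too, among them those of Cyp27a1, Osbpl9 and Smpdl3a with P3C and R848 at 4 h (adjusted p between 0.165 and 0.793). The only calls kept were Angptl4 at 4 h with each ligand, and Scd1, Scd2, Cyp27a1, Hsd3b7, Osbpl9 and Stard4 with LPS at 4 h.

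Among the enzymes of oxysterol and bile acid synthesis and the oxysterol sensors, 8 of 12 were tested. At 4 h LPS calls numbered 3, P3C calls 2 and R848 calls 3, and each was a lower signal. Of all genes 26.8%, 10.8% and 12.7% were called. The list's median with LPS was -0.28. Cyp27a1, the mitochondrial sterol hydroxylase that also makes an oxysterol, fell by 0.56 under LPS (SE 0.06, adjusted p = 7.71e-06), by 0.47 under P3C and by 0.53 under R848.

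Hsd3b7, which inactivates the oxysterol ligands of Gpr183, fell by 0.80 with LPS (SE 0.14, adjusted p = 0.000474) and by 0.50 with R848 (adjusted p = 0.0270), and its P3C difference was -0.45 (adjusted p = 0.0516). Osbpl9, an oxysterol-binding lipid transfer protein, fell by 0.76, 0.50 and 0.58 with the 3 ligands. Insig1, which holds back cholesterol synthesis when sterol is plentiful, rose early, by 0.60 with LPS (SE 0.13, adjusted p = 0.0189) and 0.64 with P3C (adjusted p = 0.0130) at 1 h, and its differences at 4 h were 0.14 to 0.17.

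Of 18 other LXR target genes, 12 were tested. At 4 h there were 4 LPS calls, 1 P3C call and 2 R848 calls, each a lower signal. Of all genes 26.8%, 10.8% and 12.7% were called, and the counts of this list lie near those shares. The list's median with LPS was -0.09, against -0.06 for all genes. Scd2, a fatty acid desaturase, fell by 0.47 at 1 h, 0.57 at 2 h and 1.12 at 4 h with LPS (SE 0.12, adjusted p = 5.70e-06 at 4 h). Scd1, a related desaturase, fell by 0.64 with LPS at 4 h (adjusted p = 0.00886).

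Smpdl3a, a phosphodiesterase, fell at 4 h under LPS by 0.31, under P3C by 0.34 and under R848 by 0.47 (adjusted p = 0.0263, 0.0324 and 0.00393). Rnf145, a ubiquitin ligase of sterol control, rose by 0.55 with LPS at 2 h (adjusted p = 0.0463) and differed by 0.16 at 4 h (adjusted p = 0.543).

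Genes of cholesterol uptake, storage and movement split in direction. Of 12 listed, 9 were tested, with 2 higher and 2 lower with LPS at 4 h (26.8% of all genes called). With P3C or R848 0 were called (10.8% and 12.7% of all genes), and the median with LPS was -0.15. Stard3, which binds cholesterol on late endosomes, rose by 0.99 (SE 0.18, adjusted p = 0.000549), and Npc2, which hands cholesterol on in the lysosome, rose by 0.54 (SE 0.14, adjusted p = 0.0112). Nceh1, a cholesteryl ester hydrolase, fell by 0.91 (SE 0.19, adjusted p = 0.00216), and Stard4, a sterol carrier of the cytosol, fell by 0.47 (adjusted p = 0.0455). With P3C and R848 the differences of these 4 genes ranged from -0.52 to 0.55, with adjusted p of 0.0532 or more.

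**Figure D4:**
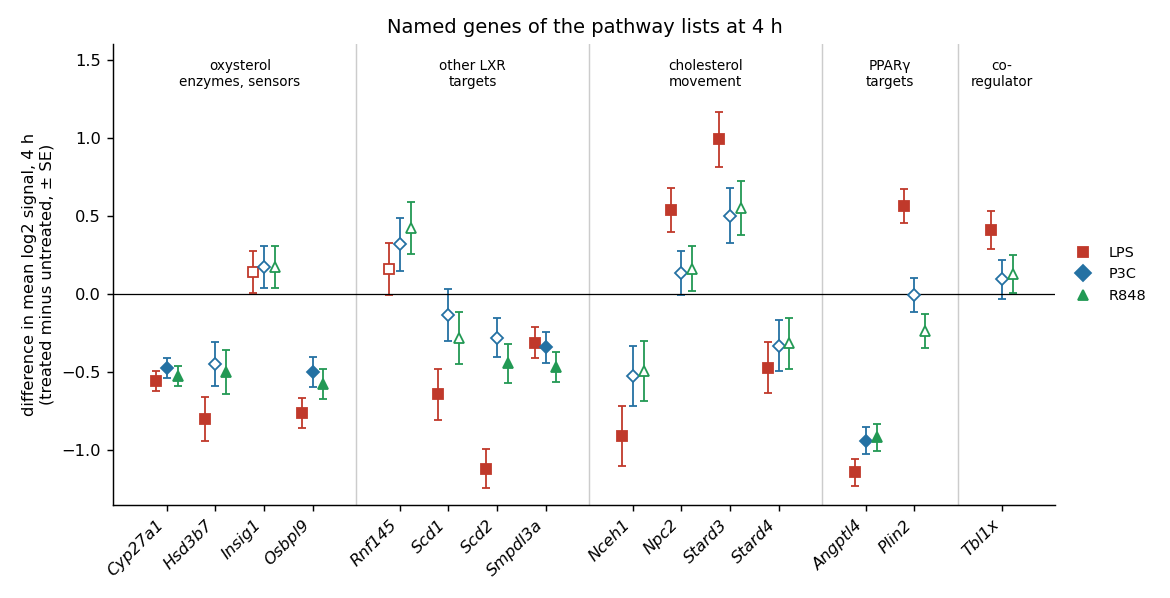
Differences in mean log2 signal between exposed and untreated cells at 4 h for the named genes of 5 pathway lists (squares, LPS; diamonds, P3C; triangles, R848), with bars of 1 SE and filled symbols for an adjusted p under 0.05. The LPS symbol of Angptl4 is drawn from a signal not well above background and marks a lower bound of its fall. Scd2 lies at -1.12 and Stard3 at 0.99 with LPS.

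PPARγ targets were tested for 4 of 8 genes, with 1 higher and 1 lower signal called for LPS at 4 h, 1 lower for P3C and 1 lower for R848. Of all genes 26.8%, 10.8% and 12.7% were called, and the list's median with LPS was -0.06. Angptl4, a secreted lipase inhibitor, fell in 8 of 9 comparisons. Its signal with LPS at 4 h was not well above background, which makes it at least 2.02-fold lower than in untreated cells (adjusted p = 8.67e-08). At 4 h it fell by 0.94 with P3C and 0.92 with R848 (SE 0.09), and the exception was P3C at 2 h (-0.20, adjusted p = 0.260).

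Plin2, the coat protein of lipid droplets, rose by 0.56 with LPS at 4 h (SE 0.11, adjusted p = 0.000976) and fell at 2 h by 0.45 with P3C (adjusted p = 0.0198) and 0.53 with R848 (adjusted p = 0.00574). Of 12 receptor partners and coregulators 4 were tested, and Tbl1x, a corepressor subunit, was the single call at 4 h. It rose by 0.41 with LPS (adjusted p = 0.0226), against a list median of -0.40. That count lies near the share of all genes called there, 26.8%. With P3C or R848 0 were called, where 10.8% and 12.7% of all genes were.

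The genes whose 12 group means ran most like those of Gpr183 were Apobec1, an RNA-editing enzyme (Pearson r 0.986), Rhebl1, a small GTPase (r 0.979), and Slc25a45, a mitochondrial carrier (r 0.975). Those most like Ch25h were Kdm4a, a histone demethylase (r 0.987), Marcks, an actin-binding protein (r 0.979), and Stat5a, a transcription factor (r 0.960). These are descriptions over 12 means that share arrays and were picked from all tested genes. Ch25h was detected only with LPS at 2 and 4 h, and its signal in every other group was not well above background. Its r values therefore rest mainly on the contrast between those LPS groups and the rest. Rhebl1 was detected on only 12 arrays. With LPS at 4 h Apobec1 fell by 1.34 (adjusted p = 9.67e-06) and Kdm4a rose by 0.92 (adjusted p = 8.13e-05). The means used to pick both genes include these groups, so the direction was favoured by the choice and the p-values add no support.

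Array quality and identity bear on all these values alike. The median signal was 95.8 to 115 per array, 12299 to 13917 probes were detected per array, and the 2 arrays of a group correlated at 0.977 to 0.995 over genes. Of 8 macrophage markers 8 were tested, and 7 were detected on all 24 arrays and Itgam on 17. Cd14 was the only marker called, and it was called higher in 6 of the 9 comparisons with untreated cells. Probes for Cd3e, Ms4a1, Col1a2, Pdgfra and Cdh1, markers of T cells, B cells, fibroblasts and epithelium, were detected on 0 arrays, and Krt8 on 5. In such samples fewer cells with a transcript and less of it per cell cannot be told apart.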

How the data were processed

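The authors deposited, for each of 24 arrays, signal intensities of 45281 probes that had not been normalized, with a detection p-value beside each. They also deposited a log2 table, quantile-normalized, that holds 23937 probes. GenomeStudio 2011.1 is the tool in the submitters' processing notes. Intensities were log2-transformed and quantile-normalized here over every array and probe, without background correction, after the study's methods. Probes stayed in if the detection p was under 0.01 on the 2 arrays of some group, and the brightest named probe stood for its gene. Names came from the array's probe list, updated through RefSeq identifiers (16512 probes) or accessions (1422).

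Group means were compared with limma 3.58.1 in R 4.3.3 (data.table, version 1.17.8), with 12 residual degrees of freedom. Adjustment over 8622 genes was by Benjamini-Hochberg, and genes under an adjusted p of 0.05 were called. The fit was tested on simulated data. Where the dimmer group was not well above background on its 2 arrays, the change is written "at least" N-fold, against the lowest detected signal of each array. Named genes were the listed genes, up to 4 called genes of each pathway list with the largest change, and the 3 closest patterns to Ch25h and Gpr183. The genes and lists were chosen with earlier results of these data known. Python 3.11.15 and matplotlib 3.10.9 drew the figures. Alternatives covered neqc background correction, median scaling, the authors' log2 values, detection filters and probe choice, pooling of untreated arrays, fits restricted to the arrays in a comparison, blocks for replicate letter and slide, and omission of single arrays. The number of arrays limits the precision.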

Additional observations from a re-analysis of the deposited data

Results flagged for a closer look

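The response to a ligand changed between 1 and 4 h in 3 results, by a test of the change itself (limma, adjusted over 8622 genes). Gpr183 had a difference of differences of -1.61 with LPS (adjusted p = 5.16e-06) and of -0.70 with R848 (adjusted p = 0.0231), and Ch25h had one of 0.41 with LPS (adjusted p = 0.0107). The R848 result was called in 8 of 19 alternatives, and with pooled untreated arrays it was -0.23 (adjusted p = 0.447). The Ch25h value rests on 6 arrays that were not well above background and 2 that were. That gene entered the tests only through LPS at 2 and 4 h, so the filter favoured this result. It was called in 15 of 18 alternatives. The call was lost under median scaling (adjusted p = 0.119), with only the arrays compared (adjusted p = 0.0502) and with slide as a random block (adjusted p = 0.0648).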

How the results depend on the processing

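Over 36 alternatives, 1684 values of the 5 tested genes were recomputed: 1642 kept their side of the threshold and their direction where called, 35 calls were lost, 7 were gained and 0 reversed. Main counts were 1, 2 and 2 for LPS and 1 at each time for P3C and R848. They were 2 for LPS against P3C at 4 h and 1 for LPS against R848 at 4 h. For the change of the LPS and R848 responses they were 2 and 1. The counts that moved by 1.5 times or more were these. Median scaling gave 0 for LPS at 1 h, 1 for LPS at 2 h, 0 for P3C at 1 h, 1 for LPS against P3C at 4 h, 0 for LPS against R848 at 4 h, and 1 and 0 for the changes with LPS and R848. Background correction gave 2 for LPS against R848 at 4 h and 0 for the change with R848. Probes detected on all 24 arrays leave out Ch25h by construction and gave 1 wherever it had been called. Pooled untreated arrays gave 0 for the change with R848, and 3 for LPS at 4 h with Abcg1 gained (-0.33, adjusted p = 0.0307). Fits of only the arrays compared gave 0 for LPS at 1 h and P3C at 2 h, and 1 for LPS at 2 h, LPS against P3C at 4 h and the change with LPS. Slide as a random block (correlation 0.602) gave 2 for LPS against R848 at 4 h, 1 for the change with LPS and 0 for that with R848. As a fixed block, which only pairs of ligands allow, it gave 1 for LPS against P3C at 4 h and 2 for LPS against R848 at 4 h, with Abcg1 at -0.25 (adjusted p = 0.0483). Leaving out an array gave 1 to 2 for LPS at 2 h, 1 for LPS against P3C at 4 h and 0 to 1 for the change with R848. For LPS against P3C at 2 h, Gpr183 was also lost under median scaling, with pooled untreated arrays (adjusted p = 0.0574) and with only the arrays compared, and Ch25h was gained with background correction (adjusted p = 0.0179) and slide as a random block (adjusted p = 0.0469), which also gained Gpr183 for LPS against R848 at 2 h (adjusted p = 0.0230). The causes were not tested beyond these constructions.

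The replicate letters are not stated to pair the arrays. Deviations of array A correlated between groups at -0.65 to 0.85 (median 0.22, 38 of 66 above 0.1). The replicate block gave Gpr183 -2.64 with LPS at 4 h and changed no call of the 5 genes, while 2500 genes were called there against 2311 without it. Over the alternatives the Gpr183 difference with LPS at 4 h lay between -3.32 and -2.40, and that of Ch25h between 0.31 and 1.17. Signal near background limits Ch25h, Abcg1 and Pparg.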
